A study of Mus musculus with 4 samples.

Results

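Spots marked as plaque in 2 mouse brain sections were divided by whether they held transcripts of Cst7 or Itgax, a pair of genes that microglia switch on around amyloid plaques. Of the 720 spots that the authors' spot table marked as plaque, 680 had at least about 4800 unique molecular identifiers (UMIs, 1 for each captured RNA molecule) and were kept, among 10549 spots in the 4 sections of the study. Each kept spot was thinned at random to that number, so that every spot was read at the same depth. The 306 spots with 1 or more thinned UMIs of Cst7 plus Itgax are called spots with, and the 374 spots with 0 are called spots without. These 2 genes chose the spots and were left out of the gene and list comparisons between the kinds. Their own values are given only to describe the division.

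The spots came from Visium arrays, on which barcoded spots capture the RNA of the tissue above them, and a spot usually covers pieces of more than one cell. The sections were 10 µm thick hemisphere sections of male mice aged 9 months. The 5xFAD section came from a mouse with human amyloid precursor and presenilin transgenes carrying familial Alzheimer's disease mutations, driven by the neuronal Thy1 promoter. The 5xFAD-Dp16 section came from a mouse that carried those transgenes together with an extra copy of a chromosome 16 segment whose genes match many on human chromosome 21, a mouse model of Down syndrome. A Dp16 section and a Wild-type (C57BL/6J) section had no spot marked as plaque and served as background. Each genotype had 1 section, so no difference had a replicate check, no test was made, and every interval covers counting error only (95%). A value was read as higher or lower where both plaque-bearing sections showed it.

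Microglia are the resident macrophages of the brain. Around amyloid plaques they leave their homeostatic state. They raise genes of phagocytosis, lysosomes, lipid handling and chemokines, in part through a step that needs the receptor Trem2 and its signalling partner Tyrobp. Cst7 encodes cystatin F, an inhibitor of lysosomal proteases, and Itgax encodes the integrin CD11c. In spot data, fewer cells of a type and less RNA per cell cannot be told apart.

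In the 5xFAD section 144 of 304 plaque spots were spots with, 47.4% (exact binomial interval 41.6 to 53.1), and in the 5xFAD-Dp16 section 162 of 376 were, 43.1% (38.0 to 48.3). Spots marked as neighbours of plaques held a UMI of the pair in 27.5% and 21.9% of cases, and unmarked spots of the same sections in 12.8% and 8.76%. At the same depth the share was 0.320% in the Wild-type section (8 of 2501 spots) and 0.128% in the Dp16 section (3 of 2344 spots). More than 4 in 10 plaque spots therefore carried the pair, over 100 times the share in either section without transgenes, while most plaque spots had none at this depth.

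The number of UMIs of the pair was low in most spots with. In 5xFAD, 160 plaque spots had 0 UMIs, 55 had 1, 54 had 2 or 3, 35 had 4 or more, and the highest spot had 19. In 5xFAD-Dp16 the same classes held 214, 71, 38 and 53 spots, and the highest spot had 22. A spot with 1 UMI lies just inside the rule and a spot with 0 just outside it, so thinning again moves spots between the kinds. Over 3 random thinnings, 71 of 304 spots (23.4%) in 5xFAD and 95 of 376 (25.3%) in 5xFAD-Dp16 changed kind at least once.

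The UMIs that thinning set aside gave a second draw from the same spots. In those left-over UMIs, 29.4% of spots without in 5xFAD and 33.2% in 5xFAD-Dp16 held a UMI of the pair, against 72.2% and 69.1% of spots with. In CPM (UMIs of the pair for every 1000000 left-over UMIs), the pair stood at 517 in spots with and 69.2 in spots without in 5xFAD. In 5xFAD-Dp16 the values were 494 and 60.0. Over all their UMIs, unmarked spots of the 2 sections had 34.0 and 37.3 CPM, and the Wild-type and Dp16 sections 0.803 and 0.298. Spots without thus held less of the pair rather than none.

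The share of spots with differed among regions, which are named here as the authors labelled them. It was highest in the region labelled FB, with 22 of 32 spots (68.8%, interval 49.99 to 83.9) in 5xFAD and 17 of 26 (65.4%, 44.3 to 82.8) in 5xFAD-Dp16. The Thalamus, with the most plaque spots in both sections, had 55.4% (42.5 to 67.7) and 56.5% (44.0 to 68.4). Cortex OLF had 31.8% and 36.4%. The intervals of the regions overlapped, apart from those of FB and Cortex OLF in 5xFAD. In 5xFAD-Dp16 the interval of Hypothalamus (30.8%, 18.7 to 45.1) overlapped those of FB and Thalamus only narrowly. Because region labels differ in their cells, the kinds were compared within regions that held at least 5 spots of each. This left 132 spots with and 135 without in 8 regions of 5xFAD, and 160 and 200 in 11 regions of 5xFAD-Dp16.

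**Figure D1:**
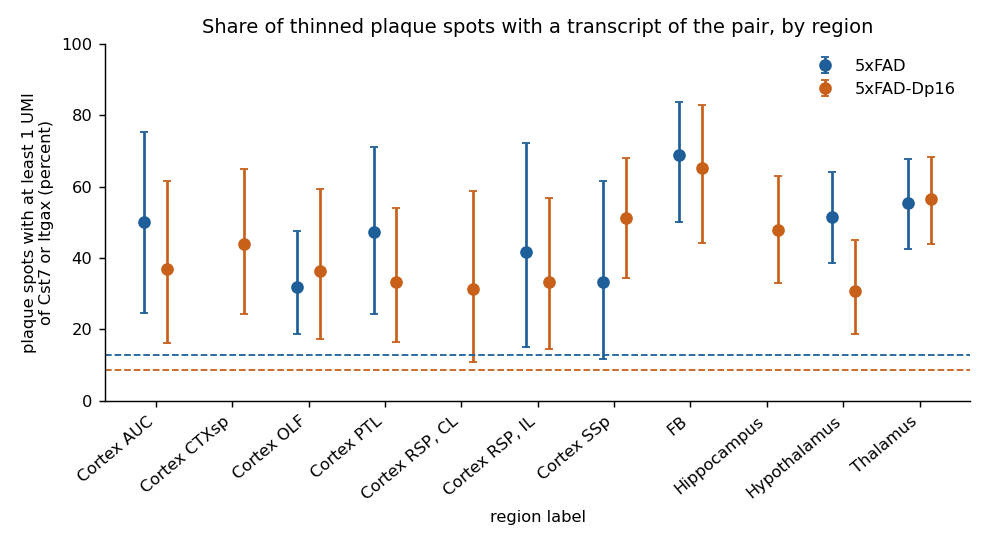
Percent of plaque spots with at least 1 thinned UMI of Cst7 or Itgax (vertical axis) in each compared region (horizontal axis, the authors' labels) of the 5xFAD (blue) and 5xFAD-Dp16 (orange) sections, with exact binomial intervals of 95% as bars. Dashed lines give the share in unmarked spots of the same section, 12.8% and 8.76%; every regional point lies above its line, with the highest points in FB at 68.8% and 65.4%.

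Spots with had somewhat fewer UMIs before thinning. Their median was 10259.5 UMIs in 5xFAD and 10294.5 in 5xFAD-Dp16, against 11418.5 and 12314.5 in spots without. The median percent of mitochondrial UMIs was 13.2% and 13.1% in spots with, and 14.3% and 13.9% in spots without. Expression cluster 11 of the authors' clustering held 36.1% of the spots with in 5xFAD and 39.5% in 5xFAD-Dp16, against 2.50% and 2.34% of the spots without. Values without that cluster are given beside the main lists and some named genes. The clusters were made from the expression of these same spots, and leaving out cluster 11 takes away mainly spots with. A smaller ratio without it is therefore not an independent check.

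Levels below are thinned UMIs per 100 spots, with spots without weighted to the mix of regions of the spots with. A log2 ratio above 0 means a higher level in spots with. Of the 4336 genes with at least 100 thinned UMIs in the compared spots, 78 had ratios of 1.5-fold or more in both sections, which is 1.8% of the genes tested, and 63 of these (1.45%) had counting intervals above 0 in both. At least 1.5-fold lower in both were 56 genes (1.29%), of which 22 (0.507%) had intervals below 0 in both. The median of all genes tested was -0.09 in each section. Of the 78 higher genes, 43 were in the lists of microglial, lysosomal and immune genes. Of the 4336 genes tested, these lists held 18 plaque-associated, 10 homeostatic, 16 lysosomal, 4 complement, 4 antigen presentation, 2 Fc receptor and 4 interferon-stimulated genes. None of the 56 lower genes was in any of the 27 lists. Tested members of the lists were a small part of the 4336 genes, so this absence is not read as a result. The 78 genes took 2.26% of the thinned UMIs of spots with in 5xFAD and 2.33% in 5xFAD-Dp16, against 0.878% and 0.868% in spots without. Without cluster 11 the counts were 26 higher and 25 lower, where the number of genes tested could differ from 4336.

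**Figure D2:**
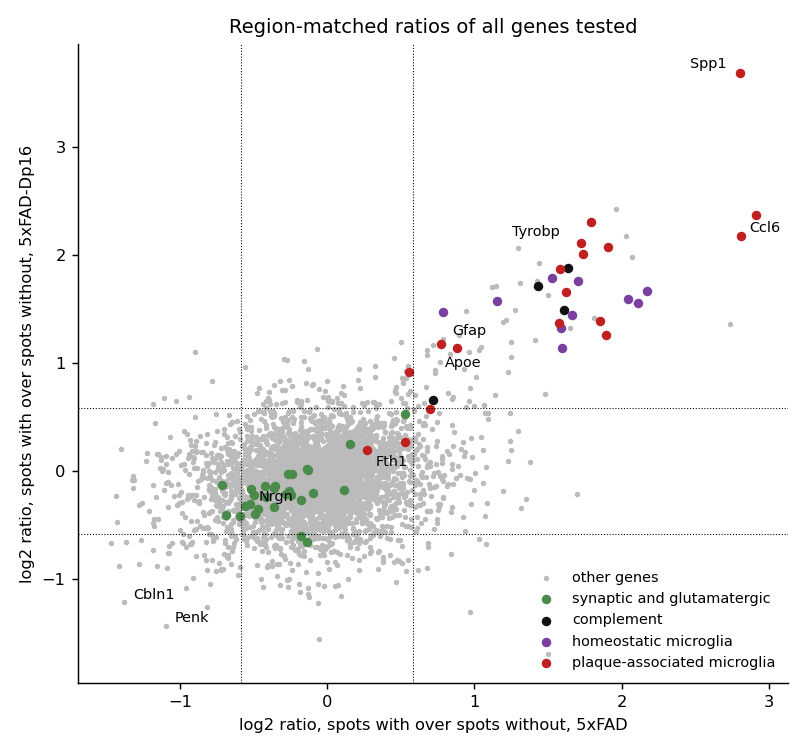
Each point is 1 of the 4336 genes tested, placed by its log2 ratio of spots with over spots without in 5xFAD (horizontal axis) and in 5xFAD-Dp16 (vertical axis), with 4 gene lists coloured and dotted lines at 1.5-fold. Members of the plaque-associated, homeostatic and complement lists lie in the upper right, up to Spp1 at 2.81 and 3.69, and most members of the synaptic list lie a little below 0 in both sections.

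The genes that plaque-associated microglia are known for were higher in spots with. Of the 36 genes of that list, 18 passed the filter on low counts. That filter summed UMIs over both kinds of spot, so a member could pass mainly through the spots where it was high. The same holds for the other genes and lists tested. Of the 18, 14 were at least 1.5-fold higher in both sections, and 17 had intervals above 0 in both, as had 3.16% of all genes tested. The list's median log2 ratio was 1.67 in 5xFAD and 1.52 in 5xFAD-Dp16. The members that passed ranged from 0.27 to 2.91 and from 0.19 to 3.69. Of the 18 members below the filter, 17 had a higher level in spots with in each section, and none had an interval below 0. In the left-over UMIs, which took no part in dividing the spots, the median was 2.02 and 1.74. Without cluster 11 it was 0.89 and 0.69.

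The receptor genes of this state differed several fold. Tyrobp, the adaptor through which Trem2 signals, stood at 653 per 100 spots with and 198 per 100 spots without in 5xFAD, and at 721 and 167 in 5xFAD-Dp16. The ratios were 3.30-fold (2.82 to 3.88) and 4.33-fold (3.78 to 4.96). Trem2, a receptor for lipids and apolipoproteins, stood at 227 and 60.5 in 5xFAD and at 236 and 55.9 in 5xFAD-Dp16. These are ratios of 3.75-fold (2.77 to 5.16) and 4.21-fold (3.32 to 5.40). Trem2 was not confined to spots with: 34.8% of the compared spots without in 5xFAD and 34.0% in 5xFAD-Dp16 held a Trem2 UMI, against 72.0% and 70.0% of spots with. Axl, a receptor for apoptotic cells, had log2 ratios of 1.89 (0.85 to 3.06) and 1.26 (0.44 to 2.13).

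Spp1, which encodes the secreted protein osteopontin, had the largest ratios of the list in 5xFAD-Dp16. Its level was 93.9 in spots with and 13.4 in spots without in 5xFAD, and 79.4 and 6.16 in 5xFAD-Dp16, log2 ratios of 2.81 (2.04 to 3.67) and 3.69 (2.76 to 4.78). Its UMIs came from a minority of spots: 40 of 132 spots with in 5xFAD and 40 of 160 in 5xFAD-Dp16 held any, and single spots held up to 14 and 41. The chemokine gene Ccl6 stood at 84.1 and 12.01 in 5xFAD and at 68.8 and 15.2 in 5xFAD-Dp16. Ccl3, another chemokine gene, stood at 31.8 and 4.22, and at 28.1 and 5.44. Gpnmb, a glycoprotein gene of lipid-laden macrophages, did not pass the filter and stood at 28.8 and 4.98 in 5xFAD and at 26.2 and 2.51 in 5xFAD-Dp16. Lpl, the lipoprotein lipase gene, was also below the filter, with 30 UMIs in spots with of each section and with 3 and 6 in spots without.

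Among the proteases and surface proteins of the list the ratios were spread widely. Ctsd, the gene of the lysosomal protease cathepsin D, stood at 1084 in spots with and 362 in spots without in 5xFAD, and at 1247 and 341 in 5xFAD-Dp16, ratios of 2.99-fold (2.66 to 3.38) and 3.66-fold (3.31 to 4.05). Cathepsin B was closer between the kinds, with log2 ratios for Ctsb of 0.56 (0.37 to 0.74) and 0.91 (0.75 to 1.08). Cd68, a lysosomal membrane protein of macrophages, had ratios of 1.80 (1.08 to 2.58) and 2.30 (1.58 to 3.11). Lyz2, the lysozyme gene, had 1.74 (1.25 to 2.27) and 2.01 (1.59 to 2.45), and Cd52, a surface glycoprotein gene, had 1.85 and 1.39. The smallest ratios in the list were those of Fth1, the ferritin heavy chain gene, which many brain cells express: 0.27 (0.22 to 0.32) and 0.19 (0.16 to 0.23). Fth1 alone made up most of the list's UMIs and was left out of the list sums given below, a choice made after its values were seen.

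Genes of homeostatic microglia were higher in the same spots. All 10 members that passed the filter, of 24 in the list, were at least 1.5-fold higher in both sections, and 9 had intervals above 0 in both. The median log2 ratio was 1.63 in 5xFAD and 1.56 in 5xFAD-Dp16, and 1.11 and 0.97 without cluster 11. P2ry12, the purinergic receptor by which resting microglia sense nucleotides, stood at 31.8 and 10.6 in 5xFAD and at 28.1 and 11.2 in 5xFAD-Dp16. Csf1r, the receptor microglia need to survive, had log2 ratios of 1.59 (1.02 to 2.21) and 1.13 (0.63 to 1.66).

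The other 14 homeostatic genes fell under the filter. In each section 13 of them had a higher level in spots with, and 3 in 5xFAD and 2 in 5xFAD-Dp16 had intervals above 0. Cx3cr1, the fractalkine receptor gene, had 1.69 (0.53 to 3.01) and 0.82 (-0.04 to 1.72). Tmem119, a microglial surface marker, had 1.45 (-0.05 to 3.26) and 0.71 (-0.21 to 1.67). Summed UMIs of the plaque-associated list without Fth1 were 3.62 times those of the homeostatic list in spots with of 5xFAD (3.42 to 3.84) and 3.84 times in spots without (3.48 to 4.25). In 5xFAD-Dp16 this ratio of the summed lists was 3.49 (3.32 to 3.67) in spots with and 3.50 (3.23 to 3.80) in spots without. The intervals of these raw ratios overlapped between the kinds of spot. With spots without weighted to the region mix of the spots with, their ratio was 4.23 in 5xFAD and 3.40 in 5xFAD-Dp16, above and below the 3.62 and 3.49 of spots with. The 2 sections thus gave no common direction for the balance of the lists, while the homeostatic sum itself was 2.97-fold higher in spots with in both. In the Wild-type section the raw ratio was 2.96 (2.87 to 3.05) and in the Dp16 section 3.32 (3.22 to 3.43).

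The complement genes showed the same pattern. All 4 members that passed, of 9, were at least 1.5-fold higher in both sections, with medians of 1.52 and 1.60, and of 1.19 and 0.88 without cluster 11. The genes of the 3 chains of C1q, the molecule that starts the classical pathway, led the list. C1qa stood at 324 and 120 in 5xFAD and at 343 and 104 in 5xFAD-Dp16. C1qb had log2 ratios of 1.61 (1.29 to 1.94) and 1.49 (1.25 to 1.73), and C1qc had 1.64 (1.31 to 1.98) and 1.88 (1.58 to 2.18). C4b, which brain astrocytes and oligodendrocytes also express, was closer between the kinds, at 0.72 (0.18 to 1.28) and 0.65 (0.19 to 1.14).

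Antigen presentation and Fc receptor genes were higher too. B2m, the light chain of MHC class I, stood at 351 and 151 in 5xFAD and at 451 and 171 in 5xFAD-Dp16, and the class I heavy chain genes H2-D1 and H2-K1 had log2 ratios from 1.05 to 1.65. Cd74, the invariant chain of MHC class II, had 2.03 (1.16 to 3.02) and 2.17 (1.11 to 3.40). All 4 members that passed in the antigen presentation list were at least 1.5-fold higher in both sections, with medians of 1.45 and 1.36, and of 0.97 and 0.74 without cluster 11. Fcer1g, the signalling chain shared by several Fc receptors, stood at 167 and 39.9 in 5xFAD and at 198 and 50.2 in 5xFAD-Dp16, and Fcgr3 had log2 ratios of 1.96 and 2.43. Without cluster 11 the log2 ratios of Fcer1g were 1.52 and 1.14.

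Of the interferon-stimulated genes 4 of 14 passed the filter, and 3 of these were at least 1.5-fold higher in both sections, namely Ifi27l2a, Ifitm3 and Bst2. Ifi27l2a was uneven between the sections, with 21.2 and 3.18 per 100 spots in 5xFAD and 70.0 and 27.3 in 5xFAD-Dp16. Its log2 ratios were 2.74 (0.98 to 5.24) and 1.36 (0.82 to 1.93).

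Lysosomal genes were divided among themselves. Of the 16 members that passed, of 20, 6 were at least 1.5-fold higher in both sections, 8 had intervals above 0 in both, and none had an interval below 0 in both. The medians were 0.51 and 0.78, and 0.20 and 0.46 without cluster 11. Grn, the progranulin gene, stood at 87.9 and 31.1 in 5xFAD and at 73.8 and 23.9 in 5xFAD-Dp16. Hexa, an enzyme gene of ganglioside breakdown, had log2 ratios of 1.15 (0.65 to 1.67) and 1.71 (1.24 to 2.20), and Gusb had 1.43 and 1.76. The most abundant members differed little: Psap, the prosaposin gene, had 0.01 (-0.14 to 0.17) and 0.08 (-0.06 to 0.23), and Atp6v0c, a subunit of the proton pump, had -0.02 (-0.15 to 0.12) and -0.16 (-0.27 to -0.04).

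**Figure D3:**
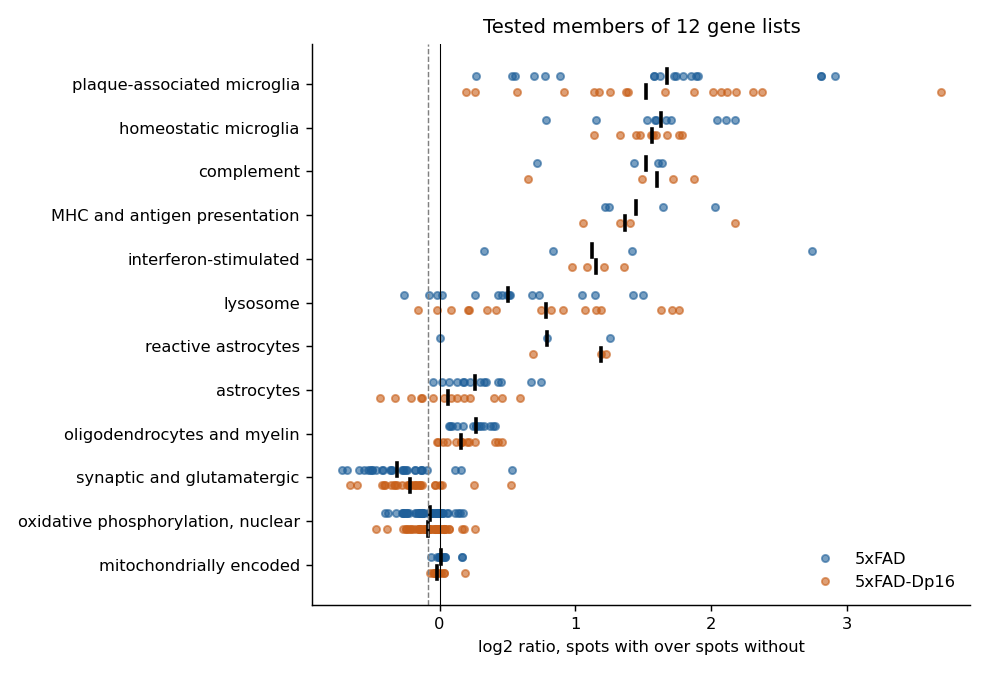
Log2 ratios of spots with over spots without (horizontal axis) for each tested member of 12 gene lists (rows), in 5xFAD (blue) and 5xFAD-Dp16 (orange), with a black bar at the median of each list and section. The dashed grey line is the median of all genes tested in 5xFAD, -0.09; the microglial medians lie between 1.52 and 1.67 and the synaptic ones at -0.32 and -0.22.

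Of the 14 reactive astrocyte genes 3 passed the filter, and 2 of these, Gfap and Serpina3n, were higher in both sections. Gfap, the intermediate filament gene of reactive astrocytes, stood at 227 in spots with and 132 in spots without in 5xFAD, and at 209 and 89.2 in 5xFAD-Dp16. The ratios were 1.73-fold (1.40 to 2.14) and 2.34-fold (1.91 to 2.88). Serpina3n, a protease inhibitor gene of reactive glia, had 2.38-fold (1.62 to 3.57) and 2.28-fold (1.59 to 3.32). Vim, another filament gene, had log2 ratios of 0.01 (-0.68 to 0.71) and 0.68 (-0.26 to 1.69). Without cluster 11 the log2 ratios were 0.33 and 0.72 for Gfap and 1.11 and 0.58 for Serpina3n. Of the 11 members below the filter, 7 were higher and 1 lower in spots with in 5xFAD, and 5 were higher and 5 lower in 5xFAD-Dp16.

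Of the 14 general astrocyte genes that passed, none was at least 1.5-fold higher or lower in both sections, and the medians were 0.26 and 0.06. Aldoc had -0.05 in both sections, and Aqp4, the water channel of astrocyte endfeet, had 0.30 (-0.35 to 0.96) and 0.23 (-0.35 to 0.81). Apoe, the main lipid carrier of the brain, made by astrocytes and by microglia near plaques, stood at 1977 and 1188 in 5xFAD and at 1726 and 906 in 5xFAD-Dp16. The Apoe ratios were 1.66-fold (1.55 to 1.78) and 1.90-fold (1.79 to 2.03), and its log2 ratios without cluster 11 were 0.44 and 0.43. Clu, another apolipoprotein gene, had log2 ratios of 0.33 (0.17 to 0.49) and 0.08 (-0.08 to 0.24).

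Oligodendrocyte genes were slightly higher, with medians of 0.27 and 0.16 over 14 members and none at least 1.5-fold higher in both sections. Mbp, the myelin basic protein gene, stood at 1895 and 1780 in 5xFAD and at 1526 and 1500 in 5xFAD-Dp16. When each region was halved at its median of myelin UMIs, a comparison added after the data were seen, the plaque-associated median was 1.80 and 1.43.

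Synaptic genes were lower by a smaller factor. Of 28 members that passed, of 31, 23 were lower in both sections, 5 had intervals below 0 in both, as had 1.75% of all genes tested, and none was at least 1.5-fold lower in both. The medians were -0.32 and -0.22, against -0.09 over all genes, and -0.20 and -0.10 without cluster 11. Snap25, a protein of vesicle fusion, stood at 942 in spots with and 1116 in spots without in 5xFAD, and at 924 and 1079 in 5xFAD-Dp16. Nrgn, the gene of the postsynaptic protein neurogranin, stood at 452 and 651 in 5xFAD and at 687 and 852 in 5xFAD-Dp16, log2 ratios of -0.53 (-0.68 to -0.37) and -0.31 (-0.42 to -0.20). Rab3a and Vamp2 also had intervals below 0 in both sections. The synaptic sum was lower in all 8 regions of 5xFAD, with intervals below 0 in each, and in 8 of 11 regions of 5xFAD-Dp16, with intervals below 0 in 5.

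The lower genes named here were taken by how far their intervals lay below 0 in both sections, not by the size of the ratio. Cbln1, a synapse organiser, stood at 22.7 and 59.1 in 5xFAD and at 15 and 35.0 in 5xFAD-Dp16. Few spots of either kind held Cbln1: 14 of 132 with and 19 of 135 without in 5xFAD. In 5xFAD-Dp16 these were 13 of 160 and 16 of 200. Single spots without held up to 11 and 9 UMIs, and single spots with up to 6 and 4. In 5xFAD-Dp16 the log2 ratio of Cbln1 turned from -1.22 to 0.31 when mitochondrial, ribosomal protein and haemoglobin genes were left out of the totals. Penk, the gene of the enkephalin precursor, stood at 18.2 and 38.9 and at 11.2 and 30.5. Olfm1, a secreted neuronal glycoprotein gene, had log2 ratios of -0.47 (-0.65 to -0.29) and -0.41 (-0.55 to -0.28). Gap43, a growth cone protein, had -0.65 (-0.95 to -0.36) and -0.49 (-0.76 to -0.23), and Stmn1, a regulator of microtubules, had -0.42 and -0.31. Of these 5 genes only Cbln1 and Penk were at least 1.5-fold lower in both sections. The count of lower genes moved with the thinning: 2 other random draws gave 34 and 25 in place of 56, and all UMIs of the spots gave 14. The number of genes tested could differ from 4336 in these runs.

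App, the mouse gene of the amyloid precursor, had log2 ratios of -0.07 (-0.27 to 0.12) and 0.05 (-0.10 to 0.19), and Thy1 had -0.15 (-0.28 to -0.02) and 0.00 (-0.11 to 0.12). The lists that follow had no member at least 1.5-fold higher or lower in both sections. The 12 mitochondrially encoded genes that passed had medians of 0.01 and -0.02, and the 52 nuclear genes of oxidative phosphorylation -0.07 and -0.08, close to the -0.09 of all genes. Of those 52, 31 were lower in both sections, and the sum had log2 ratios of -0.09 (-0.12 to -0.06) and -0.06 (-0.09 to -0.04). Heat shock genes had medians of -0.11 and 0.07, cholesterol synthesis genes -0.30 and -0.17, oligodendrocyte precursor genes 0.37 and 0.01, and vessel genes -0.11 and -0.23. Inhibitory neuron genes had medians of -0.19 and -0.36, with 6 of 9 lower in both sections, and their sum was lower by a small factor, with log2 ratios of -0.16 (-0.29 to -0.03) and -0.15 (-0.25 to -0.05). Immediate early genes had medians of -0.59 and -0.02.

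Markers of other immune cells had low counts, and no member of their lists passed the filter. The 8 border macrophage genes summed to 12 UMIs in spots with and 6 in spots without in 5xFAD, and to 12 and 10 in 5xFAD-Dp16. Over both sections and both kinds, Cd163 had 0 UMIs, Lyve1 had 1, and Cbr2 and Mrc1 had 2 each. The T and B cell list summed to 20 UMIs in spots with and 42 in spots without in 5xFAD, a log2 ratio of -0.91 (-1.79 to -0.06), and to 44 and 29 in 5xFAD-Dp16, 0.69 (-0.07 to 1.47). Most of these UMIs were of Trbc2, a T cell receptor constant gene, with 98 of them over both sections and kinds, while Cd3d, Cd3e and Cd79a had 0. The neutrophil list summed to 0 and 11 in 5xFAD and to 6 and 4 in 5xFAD-Dp16. No UMI was found of the neutrophil marker Retnlg or of the division markers Mki67 and Top2a.

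Outside the lists, 32 genes reached 1.5-fold in both sections, and 20 of them had intervals above 0 in both. Mpeg1, a pore-forming protein gene of macrophages, stood at 43.2 and 12.3 in 5xFAD and at 60.6 and 22.8 in 5xFAD-Dp16. Ly86, a partner of a Toll-like receptor family member, stood at 97.0 and 39.1 and at 124 and 37.1. Ctsh, another cathepsin gene, stood at 41.7 and 17.0 and at 32.5 and 7.78. Ftl1, the ferritin light chain gene, stood at 735 and 417 and at 790 and 480, log2 ratios of 0.82 (0.65 to 0.99) and 0.72 (0.59 to 0.85), while the heavy chain gene Fth1 had 0.27 and 0.19. Ucp2, Clic1, Arpc1b, Rnase4, Itgb5 and Wfdc17 were also among them. These 10 genes were picked from the 32 after their values had been seen.

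The immune lists climbed with the number of UMIs of the pair, here over all plaque spots and not matched by region. In 5xFAD the plaque-associated list without Fth1 summed to 1383 UMIs per 100 spots at 0 UMIs of the pair, 2053 at 1, 3826 at 2 or 3, and 7183 at 4 or more. In 5xFAD-Dp16 it summed to 1291, 2035, 3605 and 7791. Spots just inside the rule were thus closer to spots without than to the spots with 4 or more. The homeostatic list climbed alongside, with 379, 569, 1013 and 2083 in 5xFAD and 368, 607, 1111 and 2140 in 5xFAD-Dp16.

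The complement list went from 328 to 1946 between 0 and 4 or more UMIs in 5xFAD, and from 333 to 1960 in 5xFAD-Dp16. The reactive astrocyte list went from 165 to 591 and from 137 to 445. The synaptic list went the other way, from 5518 to 3577 and from 5293 to 3726. The oligodendrocyte list also stood higher at 4 or more UMIs, at 6149 against 2964 with 0 in 5xFAD and 6457 against 3182 in 5xFAD-Dp16, although in 5xFAD-Dp16 it was lower at 1 UMI (2838) than at 0. Its part in these levels was not tested here.

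**Figure D4:**
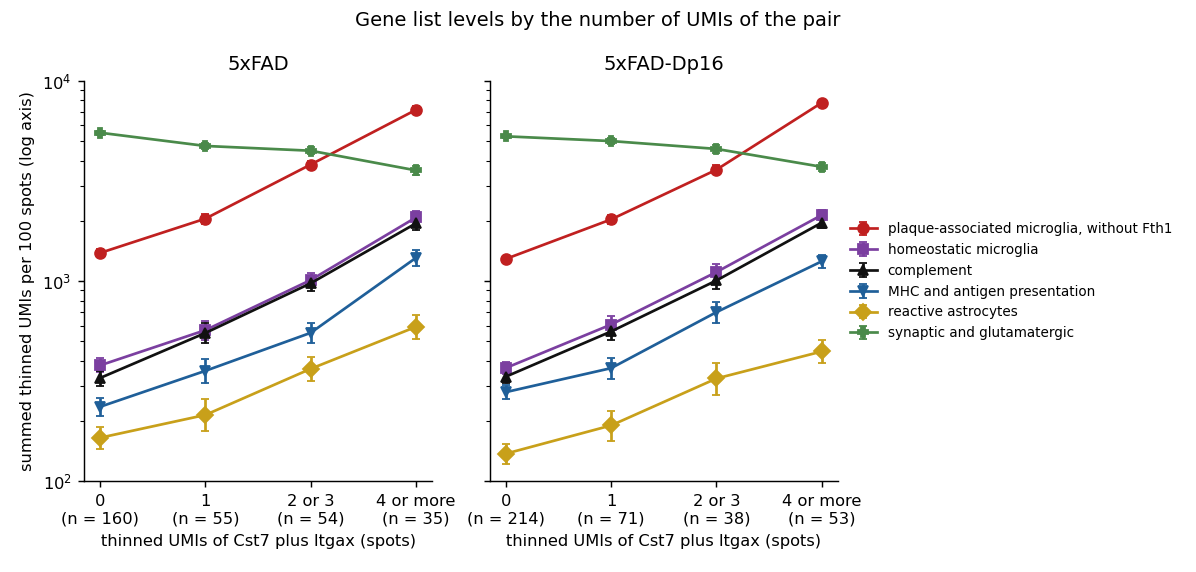
Summed thinned UMIs per 100 plaque spots (vertical log axis) of 6 gene lists in spots with 0, 1, 2 or 3, and 4 or more thinned UMIs of Cst7 plus Itgax (horizontal axis), in 5xFAD (left) and 5xFAD-Dp16 (right), with exact Poisson intervals of 95% as bars. The 4 microglial and immune lists and the reactive astrocyte list are higher in each class than in the one before, and the synaptic list falls from 5518 to 3577 and from 5293 to 3726.

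The difference between the kinds held region by region. The complement and homeostatic sums and the plaque-associated sum without Fth1 were higher in spots with, with intervals above 0, in all 8 compared regions of 5xFAD and all 11 of 5xFAD-Dp16. The log2 ratio of the plaque-associated sum ranged from 0.76 in Cortex RSP, IL to 1.86 in Hypothalamus in 5xFAD. In 5xFAD-Dp16 it ranged from 0.69 in Cortex PTL to 2.36 in Cortex OLF. The reactive astrocyte sum was less even, being higher in 7 of 8 and 8 of 11 regions.

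Plaque spots without the pair were then set against unmarked spots without it, in regions of the same sections with at least 5 of each, a comparison added after the data were seen. It held 153 plaque spots and 940 unmarked spots in 10 regions of 5xFAD, and 206 and 1304 in 12 regions of 5xFAD-Dp16. At least 1.5-fold higher in both sections were 27 genes (0.623%), and 9 were lower (0.208%). The plaque-associated list had medians of 0.66 and 0.62, with 9 of 18 members at least 1.5-fold higher in both sections, while the median of all genes was 0.02 and 0.05. Plaque marks thus went with higher microglial genes even where the pair was not seen at this depth, by less than between the kinds of plaque spot. The pair was not absent there: left-over UMIs of all plaque spots without held 69.2 and 60.0 CPM of it. Over all UMIs of unmarked spots, with or without the pair, the values were 34.0 and 37.3.

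Tyrobp stood at 183 in plaque spots without and 88.5 in unmarked spots without in 5xFAD, and at 165 and 86.8 in 5xFAD-Dp16, log2 ratios of 1.05 (0.84 to 1.25) and 0.92 (0.73 to 1.12). Trem2 had 0.93 (0.52 to 1.33) and 1.25 (0.88 to 1.60), and Serpina3n had 1.18 (0.62 to 1.71) and 1.23 (0.74 to 1.71). Ctsd, Cd52, C1qa and C4b were also among the 27. Not all of the 27 were glial or immune genes: Ctxn3 had 1.86 and 1.11, Lypd6b 1.82 and 1.18, and Syt2 0.99 and 1.75. Cbln1, Nefm and St8sia5 were among them too. The inhibitory neuron sum was higher in plaque spots without, by 0.28 (0.19 to 0.36) and 0.42 (0.34 to 0.49). The part of neuronal content in this comparison was not tested. Gfap was between 0.48 and 0.65. Thy1 was higher in plaque spots by 0.69 (0.60 to 0.78) and 0.51 (0.42 to 0.60), the gene whose promoter drives the transgenes.

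Some other genes had intervals that spanned 0 in this comparison. Spp1 had log2 ratios of 0.66 (-0.12 to 1.39) and 0.06 (-0.91 to 0.93), and Lpl had -0.93 (-2.61 to 0.39) and -0.68 (-2.29 to 0.68). These rest on few UMIs in the plaque spots without, 22 and 14 of Spp1 and 5 and 6 of Lpl. P2ry12, of the homeostatic list, had -0.38 (-1.21 to 0.37) and -0.48 (-1.30 to 0.26). Apoe had 0.01 (-0.06 to 0.09) and 0.06 (-0.01 to 0.14), although spots with held 1.66 and 1.90 times the Apoe of spots without. Homeostatic genes as a list had medians of 0.34 and 0.26, and no member was at least 1.5-fold higher in both sections.

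**Figure D5:**
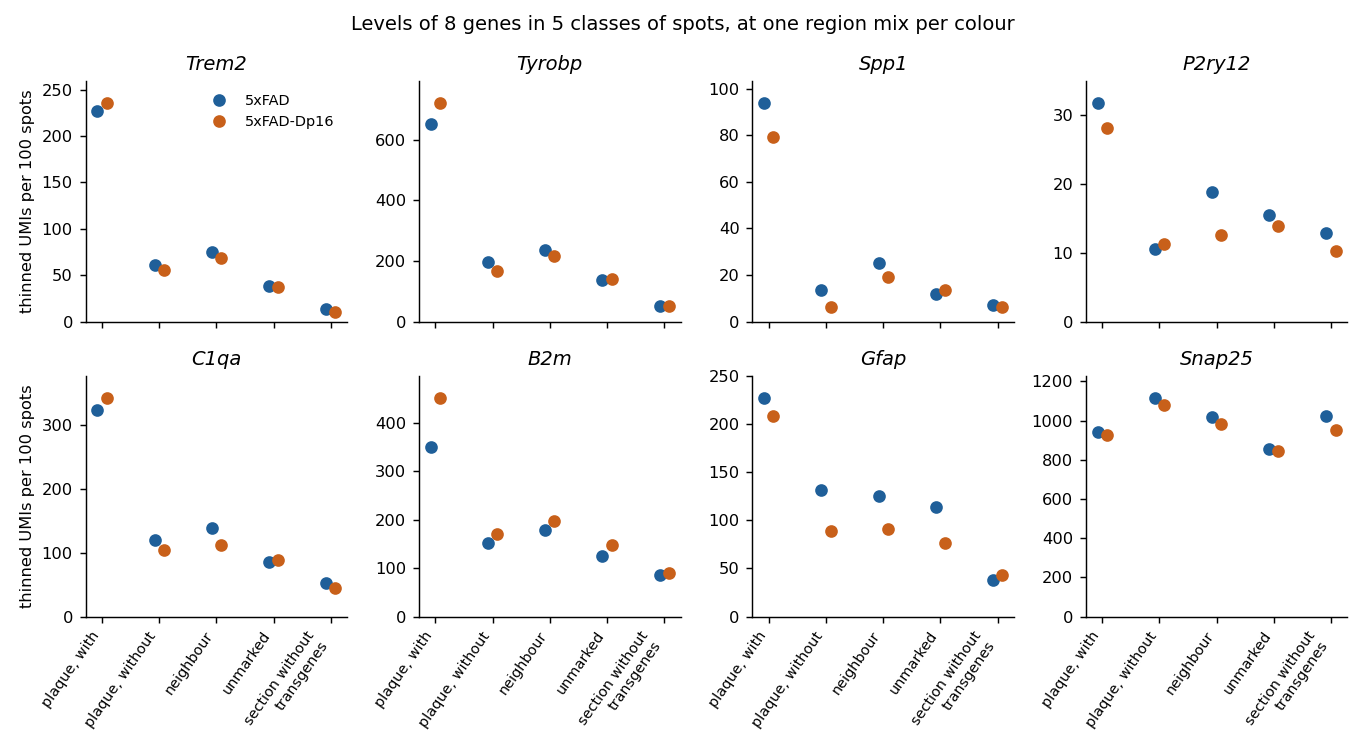
Thinned UMIs per 100 spots (vertical axis, from 0) of 8 genes in plaque spots with and without the pair, neighbour spots, unmarked spots and the matching section without transgenes (Wild-type for 5xFAD in blue, Dp16 for 5xFAD-Dp16 in orange), all weighted to the region mix of the spots with. Trem2 and Tyrobp step down from spots with (227 and 653 in 5xFAD) to spots without (60.5 and 198) and are lowest in the sections without transgenes (13.2 and 49.9), and Snap25 is highest in plaque spots without. Only plaque spots were divided by the pair, and the other classes include spots that held it.

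Across the 5 classes of spot at the region mix of the spots with, neighbour spots lay between spots with and unmarked spots for Trem2 and Spp1. Trem2 stood at 75.2 in neighbour spots of 5xFAD, 38.6 in unmarked spots and 13.2 in the Wild-type section. In 5xFAD-Dp16 it stood at 68.4, 37.1 and, in the Dp16 section, 10.4. Spp1 stood at 25.02, 11.8 and 6.99, and at 19.1, 13.4 and 6.29. Both were higher in neighbour spots than in plaque spots without, which had 60.5 and 55.9 for Trem2 and 13.4 and 6.16 for Spp1. Only plaque spots were divided by the pair, and over all regions 27.5% and 21.9% of neighbour spots held it. These levels therefore cannot tell whether neighbour spots lacking the pair exceed plaque spots without, which was not tested. Gfap stood at 126 and 114 in neighbour and unmarked spots of 5xFAD, against 132 in plaque spots without and 38.1 in the Wild-type section. In 5xFAD-Dp16 it stood at 91.0, 76.3, 89.2 and, in the Dp16 section, 43.1. Spots with had 227 and 209. Matched by region in the comparison above, it was higher in plaque spots without than in unmarked spots, by 0.48 (0.22 to 0.73) and 0.65 (0.38 to 0.92).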

How the data were processed

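Visium libraries of 4 sections were used as deposited: a matrix of raw UMI counts for 19090 genes, and a spot table with section, region (17 labels, 26 finer ones), expression cluster, plaque and neighbour marks and the percent of mitochondrial counts. The submitters' processing notes name Space Ranger, Seurat and the mm10 build; their versions, and how regions and plaque marks were made, are not given in the sources used here. Section totals were 26049860 to 36461389 counts. The deposited percent of mitochondrial counts was used only to describe spots. Spots are not replicates, no doublet caller was run, and 20 plaque spots of each section below the depth of thinning (about 4800 UMIs, as the rule for the spots sets it) were left out.

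Each spot was thinned without replacement (seed 1). Counts were summed by kind and region, and the expected count was taken from spots without in the same regions. Ratio intervals are Clopper-Pearson at 95%, using the effective count of the weighted sum. Genes needed 100 UMIs over both sections, a count of 0 was set to 3, and Cst7 and Itgax were left out. Named genes were the 12 highest by the smaller lower bound, the 12 lowest by the larger upper bound, the 3 most abundant tested members of each list and a fixed set; other names come from list membership or are said to be chosen from their values. The spots, lists and rules were chosen with earlier results of these data known. No sample is human, and a few genes are not reported here.

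On simulated data of 4336 genes with Poisson counts, the interval for 5xFAD held the true ratio in 96.3% of unchanged genes, and in 94% of those changed 1.5-fold and of those changed 3-fold. For 5xFAD-Dp16 these were 95.8, 97 and 96%. Simulated counts follow the model the intervals assume. Of unchanged genes, 4.71% and 2.97% reached 1.5-fold higher in 1 section.

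Alternatives were 2 other seeds, regions with 1 or 20 spots of each kind, a common ratio by conditional maximum likelihood, no matching, 2 UMIs of the pair, Cst7 alone, all or left-over UMIs as CPM, finer labels, leaving out the largest region, 50 or 300 UMIs, 2-fold, and a total without haemoglobin, ribosomal protein and mitochondrial genes. Added after seeing the data were leaving out cluster 11, leaving out 9 plaque spots that lack the mark in the neighbour column, halving regions by myelin UMIs, list sums without Fth1, and plaque spots without against unmarked spots. Tools were Python 3.11.15, numpy 2.4.6, scipy 1.17.1, pandas 2.3.3 and matplotlib 3.10.9.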

Additional observations from a re-analysis of the deposited data

Results flagged for a closer look

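A few genes and lists moved in opposite directions in the 2 sections, each beyond its own counting interval; the difference between the sections itself was not tested. Sst, the somatostatin gene of an inhibitory neuron class, had log2 ratios of -0.35 in 5xFAD and 0.29 in 5xFAD-Dp16. Ttr, the transthyretin gene of choroid plexus, had 0.23 and -0.32, and the summed choroid plexus list also 0.23 and -0.32. Single spots held up to 269 Ttr UMIs among spots with in 5xFAD and up to 377 among spots without in 5xFAD-Dp16, where the median spot had 1. Hba-a1, a haemoglobin gene, had 0.84 and -0.77, and the summed haemoglobin list 0.86 and -0.20. One spot with in 5xFAD held 240 Hba-a1 UMIs, and the median spot 0.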

How the results depend on the processing

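No paired analysis was possible because each genotype had 1 section and the labels give no shared replicate numbers. The share of plaque spots with was 62.8% in 5xFAD and 62.0% in 5xFAD-Dp16 with all UMIs, and 29.3% and 24.2% where 2 UMIs of the pair were asked for. Except at 2-fold, the number of genes tested could differ from 4336 in the runs below. Their counts are therefore not shares to set against the 78 higher and 56 lower genes. Higher genes numbered 39 in regions with at least 20 spots of each kind, 152 at 50 UMIs, 29 at 300 UMIs, 46 at 2-fold and 26 without cluster 11. Lower genes numbered 34 and 25 with other seeds, 17 in regions with at least 20 spots, 14 with all UMIs, 19 with left-over UMIs, 123 at 50 UMIs, 1 at 300 UMIs, 2 at 2-fold, 23 without mitochondrial, ribosomal protein and haemoglobin genes, 25 without cluster 11 and 28 with regions halved by myelin UMIs. The lists other than the plaque-associated one with medians of at least 1.5-fold in both sections numbered 5, and 3 with at least 20 spots, 2 at 300 UMIs and 3 without cluster 11.

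The plaque-associated median stayed above 0 in every alternative run, from 0.89 to 2.03 in 5xFAD and from 0.69 to 1.90 in 5xFAD-Dp16. It left its interval in 5xFAD at 1.90 with at least 20 spots, 1.92 with 2 UMIs, 2.02 in left-over UMIs and 2.03 without mitochondrial, ribosomal protein and haemoglobin genes, and in 5xFAD-Dp16 at 0.69 without cluster 11. Plaque spots without over unmarked spots gave 47 higher genes with at least 20 spots, against 27. Signs reversed for Cbln4 in 5xFAD (0.47 and 0.011 with other seeds), Hba-a1 in 5xFAD-Dp16 (0.0063 with another seed), Asb13 in 5xFAD-Dp16 (0.050 in left-over UMIs) and Cbln1 in 5xFAD-Dp16 (0.31 without mitochondrial, ribosomal protein and haemoglobin genes). In 5xFAD, Hbb-bs, Hba-a1, Hba-a2 and the median of the haemoglobin list reversed to -0.0059, -0.54, -0.20 and -0.20 with 2 UMIs and to -0.63, -0.92, -1.05 and -0.77 without the region with most plaque spots. The cause of these changes was not tested, apart from those that follow from fewer genes or spots. Depth limits genes under about 100 UMIs, and intervals do not cover differences between animals.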
